A study of Mus musculus with 8 samples.

Results

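A set of 10 genes of growth hormone and cytokine signalling was followed in brown adipose tissue, a heat-producing fat. They were Ghr, the growth hormone receptor, the transcription factors Stat5a, Stat5b and Stat3, the repressor Bcl6, the feedback inhibitors Cish, Socs1, Socs2 and Socs3, and the growth factor Igf1. The genes were taken by name, and all 10 had a probe set among the 20405 named ones in the table. The set was chosen by the log2 values of Cish on these same arrays, which had been seen to spread widely, together with its pathway partners. The genotype differences of the members are therefore given below as descriptions, with no test. By the mean over all 8 arrays, no member lay in the dimmest 40 percent of the table, which ends at a log2 level of 3.62. Socs1, Socs2 and Socs3 lay close above that cut and below the array medians of 4.42 to 4.44. The GRBATKO mean of Socs3, 3.53, was under the cut.

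The tissue came from 4 GRBATKO mice, a knockout line whose name is read here as loss of the glucocorticoid receptor in brown adipose tissue, and from 4 control mice. Controls are named wild type on the samples and Flox in the design text, and their alleles are described no further. All 8 mice were between 16 and 20 weeks old when they entered the cold, and both groups then spent 1 week at 5 °C, so no mouse kept warm enters any comparison here. What drove the deletion, the sex of the mice and the hour of tissue collection are not stated in the labels. Each numbered sample, taken here as 1 mouse, gave 1 Affymetrix Mouse Gene 1.1 ST array, on which each value is a log2 intensity summarised over the probes of a gene. Such values compare a gene between mice and do not rank different genes by abundance.

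Growth hormone binds its receptor on the cell surface, and the receptor-bound kinase JAK2 phosphorylates STAT5A and STAT5B. These enter the nucleus, bind DNA sites of the form TTCNNNGAA and switch on genes that include Cish, Socs2 and Igf1, while Bcl6 is a gene that STAT5 represses in mouse liver. The CISH and SOCS proteins then damp the signal at the receptor, and the glucocorticoid receptor can act as a partner of STAT5 on DNA.

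The start-site windows of the members were searched for the STAT letters, because Cish and Bcl6 turned out to be the members that varied most between mice. RefSeq promoter windows of build GRCm38.p6, which run from 250 bases before to 50 bases after a start site, were found for 9 of the 10 members, all but Socs2, in 13 windows. TTCNNNGAA reads the same on both strands, and matches lay in the Cish window, the Socs3 window and both Bcl6 windows. In the lines below, the matches are in capitals and each sequence reads 5′ to 3′ along the gene. The Cish stretch is chr9:107296649-107296678 on the plus strand and covers positions -10 to 20, counted from the start site as 1. The Socs3 stretch is chr11:117969501-117969530 on the minus strand. The stretch before the upstream Bcl6 start is chr16:23988951-23988980, and that before the downstream Bcl6 start is chr16:23981355-23981459, both on the minus strand.
Cish: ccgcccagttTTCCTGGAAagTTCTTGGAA
Socs3: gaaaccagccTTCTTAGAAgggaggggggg
Bcl6, upstream start: agcaaattagTTCTCAGAAttccagaggcc
Bcl6, downstream start: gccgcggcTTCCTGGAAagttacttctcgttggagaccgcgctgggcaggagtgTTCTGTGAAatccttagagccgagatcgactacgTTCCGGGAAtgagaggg

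The Cish window thus held 2 matches, at positions 1 to 9 and 12 to 20, and the window of the downstream Bcl6 start held 3. Of all 32851 windows of that length, 8.30% held at least 1 match, 0.457% at least 2 and 0.0335% (11 windows) at least 3. The other windows of the members, those of Ghr, Igf1, Socs1, Stat3, Stat5a and Stat5b, held none. The full palindrome that the glucocorticoid receptor binds, AGAACA and TGTTCT with 3 bases between them, lay in none of the members' 13 windows and in 3 of all 32851. TGTTCT alone, read on either strand, lay in 19.0% of all windows and in 2 of the members' 13, Stat3 and the downstream Bcl6 start, where it overlaps the middle TTCNNNGAA match. A match of letters is not a bound site, and the arrays do not measure binding. The windows were searched after the spread had been seen, and a link between the matches and the spread was not tested.

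As a check of the labels, Nr3c1, the gene of the glucocorticoid receptor, was 7.81, 7.72, 7.61 and 7.83 in GRBATKO tissue, against 8.56, 8.67, 8.68 and 8.51 in control tissue. Its log2 difference was -0.86 (SE 0.08, limma adjusted p = 0.00697). Peritoneal macrophages are named as the RNA source in the extraction text, while the tissue label is brown adipose tissue. The mean log2 level of the brown adipocyte markers, all 12 of which were measured, was 10.70 to 10.86 in GRBATKO and 10.71 to 10.87 in control tissue, and that of 12 macrophage markers was 5.83 to 6.39 in GRBATKO and 5.64 to 6.21 in control tissue. Array medians ran from 4.42 to 4.44. Plate position codes in the labels put the GRBATKO arrays in rows C and D and the control arrays in rows A and B, so genotype and plate row cannot be told apart. Skeletal muscle markers (12 of 12 measured) were high on 2 arrays: their mean log2 level was 7.08 in control 3 and 5.59 in GRBATKO 4, against 3.24 to 4.21 on the other 6. Their summed intensity ran from 126 to 833 in GRBATKO and from 129 to 2905 in control tissue. B cell markers (9 of 10 measured) had a mean level of 4.65 in GRBATKO 2 and 3.46 to 3.79 elsewhere, and T and NK cell markers (15 of 16 measured) 4.13 in GRBATKO 2 and 3.34 to 3.62 elsewhere. The summed intensity of the B cell markers was 162 to 542 in GRBATKO and 168 to 293 in control tissue, and that of the T and NK cell markers was 186 to 355 in GRBATKO and 186 to 225 in control tissue. In bulk tissue, fewer cells of a type and less RNA per cell cannot be told apart.

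Cish, which codes for the inhibitor CISH and is a classical STAT5 target, varied more between mice than nearly all other genes. Its probe set (12700_at, chromosome 9) read 7.74, 8.06, 7.02 and 7.06 in GRBATKO mice 1 to 4, against 6.49, 8.48, 5.13 and 5.61 in control mice 1 to 4. The 4 knockout mice lay closer together than the control mice. Of the 4 control mice, 3 lay below each knockout mouse and control 2 lay above them all, so the groups overlap. The control values span 3.35 log2 units, a 10.2-fold range of intensity, while the knockout values span 1.04, a 2.06-fold range. The SD over all 8 arrays was 1.17, against a median of 0.159 over all probe sets, and only 13 of the 21115 probe sets had a higher one, which gives Cish rank 14.

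The mean of Cish was 7.47 ± 0.51 in GRBATKO and 6.43 ± 1.48 in control tissue (SD, n = 4 each), a log2 difference of 1.04 (SE 0.63) or 2.06-fold. That value depends on single control mice. Without control 2 the difference was 1.73 (SE 0.35), and without control 3, the array with the most muscle RNA and the lowest Cish value, it was 0.61 (SE 0.59). It was 0.67 (SE 0.83) without control 1 and control 4 together. Without control 3 and GRBATKO 4, the arrays high in muscle markers, it was 0.75 (SE 0.66). Within plate column 5, which holds mice 1 and 3 of each group, the difference was 1.57 (SE 0.48). Within column 7, which holds mice 2 and 4, it was 0.52 (SE 0.92). Over the 8 arrays Cish had a Pearson r of -0.70 with the mean of the muscle markers and of 0.35 with that of the T and NK cell markers. With the fibroblast, B cell, macrophage, endothelial and brown adipocyte marker means r was -0.26, 0.18, 0.16, -0.13 and -0.07. All are descriptions. The muscle markers were high in control 3 and GRBATKO 4, and r without these arrays was not computed. The part of muscle or lymphoid RNA in the Cish values was not tested.

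**Figure D1:**
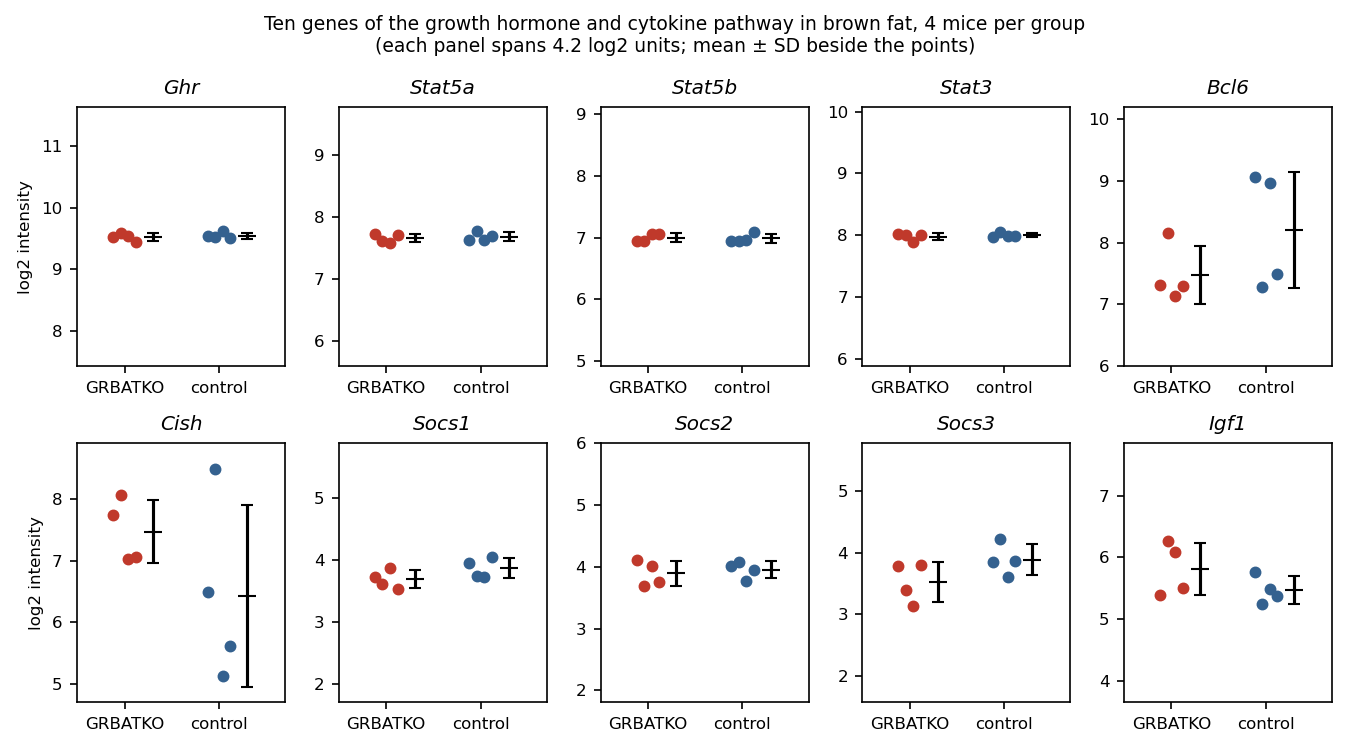
Log2 intensity of the 10 genes, with GRBATKO mice (red) left of control mice (blue), 4 mice each. Every panel spans the same number of log2 units, and black bars give mean ± SD. Cish and Bcl6 spread widely among the control mice, while Ghr, Stat5a, Stat5b and Stat3 stay within 0.19 log2 units over all 8 mice.

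Ghr, the receptor, hardly varied. Its probe set (14600_at, chromosome 15) read 9.52, 9.59, 9.54 and 9.44 in GRBATKO tissue, against 9.54, 9.53, 9.62 and 9.50 in control tissue, a difference of -0.02 (SE 0.07). The values of both groups are interleaved within 0.18 log2 units. The SD of Ghr over the 8 arrays was 0.054, which ranks 20660 of 21115 from the widest.

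The 3 signal transducers were as even. Stat5a (20850_at, chromosome 11) had 7.73, 7.62, 7.59 and 7.71 in GRBATKO tissue, against 7.63, 7.78, 7.63 and 7.70 in control tissue, a difference of -0.02 (SE 0.07). Stat5b (20851_at), its close relative on the same chromosome, had 6.94, 6.95, 7.06 and 7.05 in GRBATKO tissue, against 6.95, 6.95, 6.96 and 7.09 in control tissue, a difference of 0.01 (SE 0.07). Stat3 (20848_at, chromosome 11), the transducer of interleukin 6 and leptin signals, had 8.02, 8.001, 7.89 and 8.003 in GRBATKO tissue, against 7.98, 8.06, 7.99 and 7.99 in control tissue, a difference of -0.02 (SE 0.07). With 1 array left out in turn, the differences of Ghr and these 3 genes stayed between -0.047 and 0.047 and took either sign. In all 3 genes the groups overlap, and the SDs over the arrays, 0.046 to 0.066, rank between 20162 and 20874 of 21115. Stat5a and Stat5b are near-identical in sequence, and how far their probes tell them apart was not tested. The arrays measure RNA, so phosphorylation of the STAT proteins is outside these values.

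Bcl6 (12053_at, chromosome 16), the zinc-finger repressor with the second widest spread among the members, read 7.31, 8.16, 7.13 and 7.29 in GRBATKO tissue, against 9.05, 7.28, 8.96 and 7.49 in control tissue. Control 1 and control 3 were the highest of all 8 mice, GRBATKO 2 came next, and the other 5 mice lay between 7.13 and 7.49. Both groups thus hold low mice, and they overlap. The mean was 7.47 ± 0.46 in GRBATKO and 8.20 ± 0.94 in control tissue (SD, n = 4 each), a difference of -0.73 (SE 0.42). The SD over the arrays was 0.79, which ranks 73 among all probe sets.

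The Bcl6 difference changed sign between plate columns, at -1.79 (SE 0.13) within column 5 and 0.33 (SE 0.29) within column 7. Each column holds only 2 mice per group. It was -0.44 without control 1 and -0.47 without control 3, and -0.41 without control 3 and GRBATKO 4. GRBATKO 2, the knockout mouse with high Bcl6, was also the mouse with the most B cell and T cell marker signal, and without it the difference was -0.95. Whether lymphoid RNA carried Bcl6 in that mouse was not tested.

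**Figure D2:**
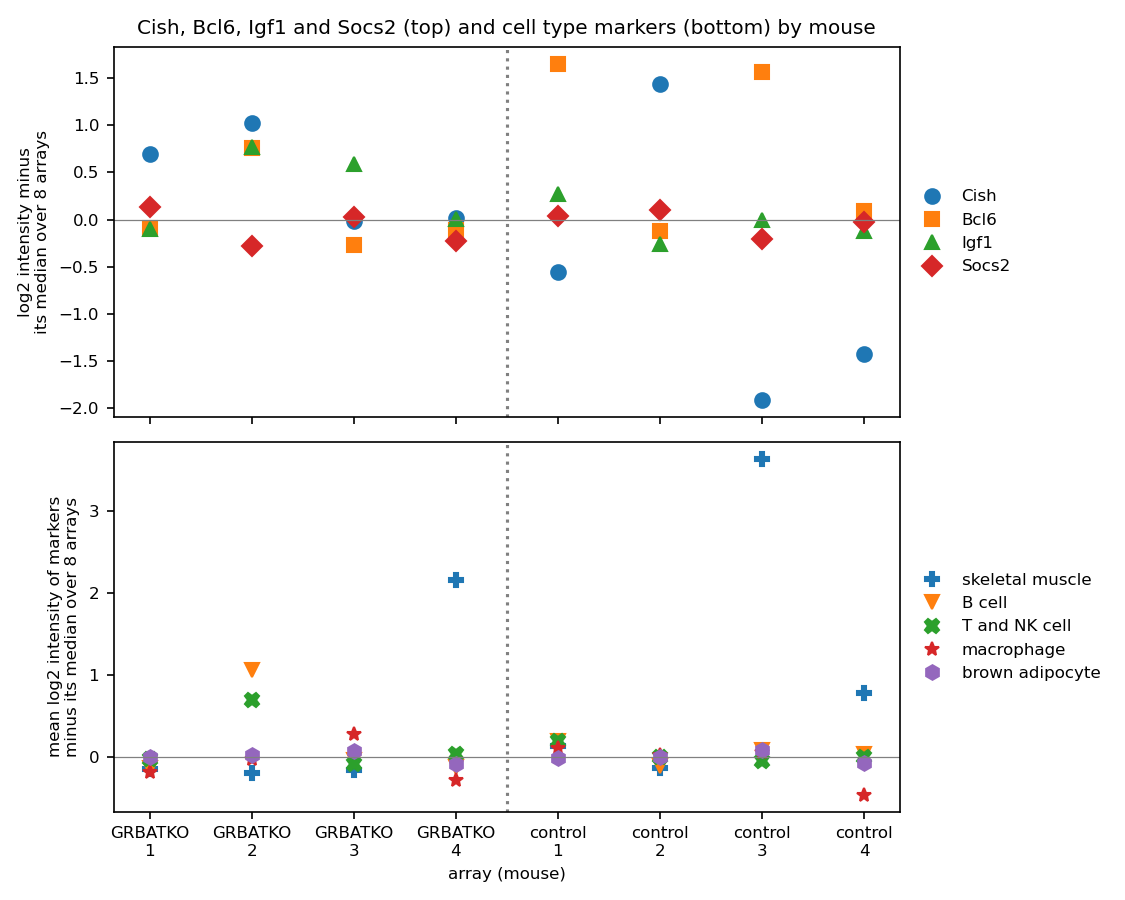
Upper panel, log2 intensity of Cish, Bcl6, Igf1 and Socs2 minus its own median over the 8 arrays, by mouse, GRBATKO left of control. Lower panel, the mean log2 level of each marker list treated alike. Cish runs from 5.13 in control 3 to 8.48 in control 2, Socs2 stays within 0.42 log2 units, muscle markers stand out in control 3 and GRBATKO 4, and lymphocyte markers in GRBATKO 2.

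The SOCS genes code for inhibitors that bind receptors or JAK kinases and are themselves induced by cytokines. Socs2 (216233_at, chromosome 10), the one most closely tied to growth hormone, was 4.11, 3.70, 4.01 and 3.75 in GRBATKO tissue, against 4.02, 4.09, 3.77 and 3.95 in control tissue. GRBATKO 1 lay above all control mice and GRBATKO 2 and GRBATKO 4 below them all, so the groups overlap. Means were 3.89 ± 0.20 in GRBATKO and 3.96 ± 0.14 in control tissue (SD, n = 4 each), a difference of -0.06 (SE 0.11). The whole range of Socs2, which lay below the array medians, was 0.42 log2 units, where that of Cish was 3.35. Socs2 differed by 0.17 (SE 0.14) within plate column 5 and by -0.30 (SE 0.13) within column 7. With 1 array left out its difference ran from -0.14 without GRBATKO 1 to 0.0011 without GRBATKO 2.

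Socs3 (12702_at, chromosome 11), the inhibitor induced by STAT3, was 3.79, 3.40, 3.13 and 3.80 in GRBATKO tissue, against 3.86, 4.22, 3.61 and 3.87 in control tissue. GRBATKO 2 and GRBATKO 3 lay below all control mice, and the other 2 knockout mice fell among them. The difference was -0.36 (SE 0.17), and it was -0.23 without GRBATKO 3 and -0.54 without control 3 and GRBATKO 4. Socs1 (12703_at, chromosome 16), the inhibitor best known from interferon signalling, was 3.73, 3.62, 3.87 and 3.54 in GRBATKO tissue, against 3.96, 3.74, 3.73 and 4.06 in control tissue, a difference of -0.18 (SE 0.11). GRBATKO 2 and GRBATKO 4 lay below all control mice, and the others among them. The Socs1 difference was -0.12 without control 4 and -0.043 without control 1 and control 4 together. It was -0.043 (SE 0.14) within plate column 5 and -0.32 (SE 0.15) within column 7. How far the SOCS values lie above background was not tested.

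Igf1 (16000_at, chromosome 10), the growth factor that growth hormone induces, was 5.40, 6.27, 6.09 and 5.51 in GRBATKO tissue, against 5.77, 5.24, 5.50 and 5.37 in control tissue. GRBATKO 2 and GRBATKO 3 lay above all control mice, the other 2 knockout mice among them. Means were 5.81 ± 0.43 in GRBATKO and 5.47 ± 0.22 in control tissue (SD, n = 4 each), a difference of 0.34 (SE 0.20). Without GRBATKO 2, the mouse high in lymphocyte markers, it was 0.19. Within plate column 5 it was 0.11 (SE 0.25) and within column 7 it was 0.58 (SE 0.26). The 2 mice with most Igf1 also had the least Socs3. Over the 8 arrays Igf1 had a Pearson r of -0.74 with the endothelial marker mean, 0.73 with the B cell, 0.71 with the fibroblast, 0.65 with the T and NK cell, 0.52 with the macrophage, 0.42 with the brown adipocyte and -0.31 with the skeletal muscle marker mean, all descriptions. The part of these cells in the Igf1 values was not tested.

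In the limma fit over the whole table, 0.0237% of all 21115 probe sets (5 in number) had an adjusted p under 0.05, 8.62% had an unadjusted p under 0.05 and 5.64% had groups that did not overlap. Given as a tally and not as a test of the members, 0 of the 10 lay in each of these classes. The members' mean was higher in GRBATKO tissue for 3 genes (Cish, Igf1 and Stat5b) and lower for 7. Their median difference was -0.02, against -0.00219 over all probe sets. Nothing is read from these counts, since the members were chosen with this contrast in view.

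**Figure D3:**
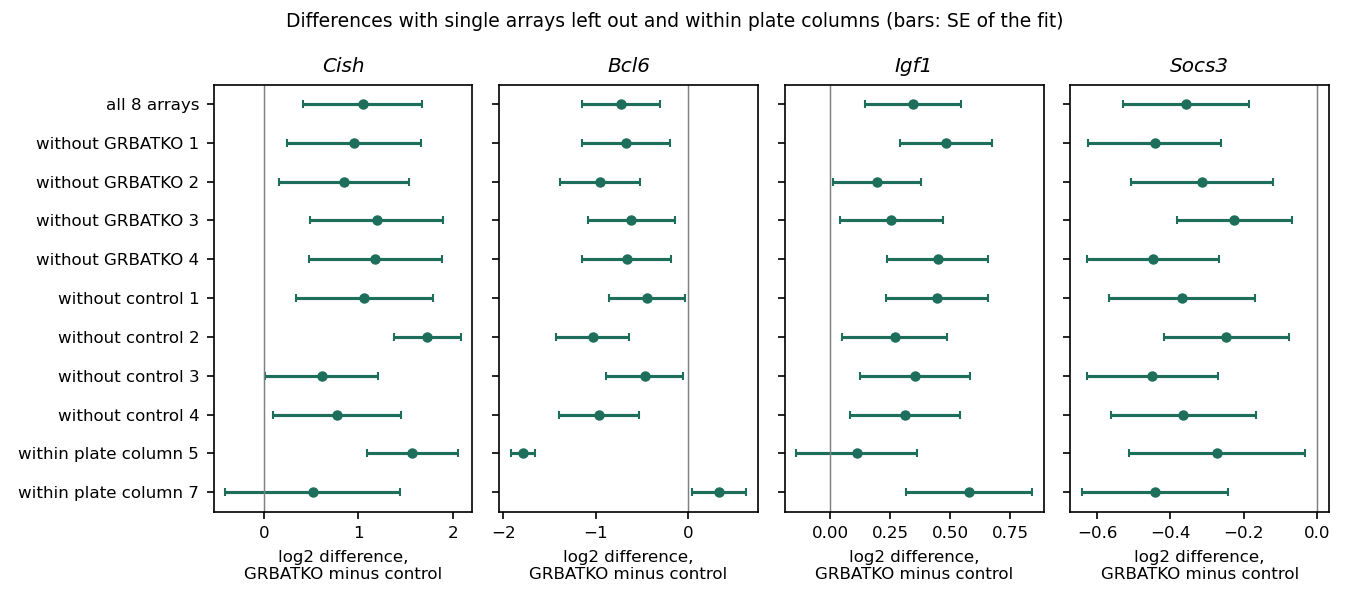
Log2 difference, GRBATKO minus control, of the 4 members with the largest differences, with all 8 arrays, with each array left out in turn, and within each plate column. Points are estimates, bars are the SE of the fit and the grey line marks no difference. The Cish difference moves between 0.61 and 1.73 when 1 array is left out, and that of Bcl6 changes sign in plate column 7.

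**Figure D4:**
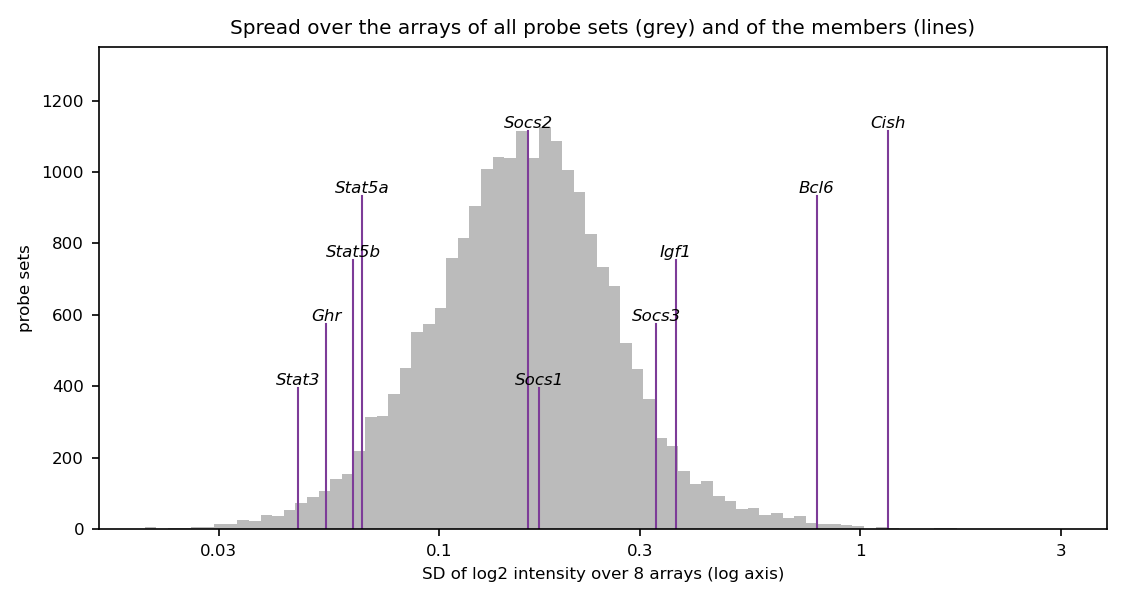
Histogram of the SD of log2 intensity over the 8 arrays for all 21115 probe sets (grey, logarithmic horizontal axis), with the members as vertical lines whose heights only separate the names. The receptor and the 3 STAT genes lie at the low end, Socs1 and Socs2 near the median of 0.159, and Cish (1.17) and Bcl6 (0.79) at the high end.

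Whether Cish moved with the other members from mouse to mouse was examined over the 8 arrays, in 9 relations with two-sided exact permutation tests of all pairings. Cish was chosen by its values on these same arrays, and the pairings mix the 2 genotypes. The p-values are therefore descriptions, and no conclusion is drawn from them. None passed after Benjamini-Hochberg adjustment, by Pearson's r or by Spearman's rho, and none had an unadjusted p under 0.05. Cish and Socs2 had r = 0.25 (exact p = 0.541, adjusted p = 0.753) and rho = 0.19 (exact p = 0.665, adjusted p = 0.904). Cish and Igf1 had r = 0.16 (exact p = 0.708, adjusted p = 0.753) and rho = -0.02 (exact p = 0.977, adjusted p = 0.977). Without control 2 and control 3, the mice farthest from the Cish median, r turned to -0.27 for Socs2 and was 0.48 for Igf1. After each genotype's mean was subtracted, r was 0.41 for Socs2 and -0.11 for Igf1. Within a genotype there are 4 mice, too few for a relation of its own. The Bcl6 values fall into separate clusters, so no pooled r of Cish with Bcl6 is printed, though the pair is counted among the 9. Control 1 and control 3 combine high Bcl6 with Cish below all knockout mice, GRBATKO 2 is high in both, and control 4 is low in both.

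Among all 45 pairs of members, a set looked at after the values were seen, none passed by either measure. These p-values too are descriptions, since the members were chosen on these arrays and the pairings mix the genotypes. By Pearson's r the strongest was Socs3 with Stat5a at r = 0.85 (exact p = 0.00516, adjusted p = 0.116) and rho = 0.71 (exact p = 0.0576, adjusted p = 0.625). It was 0.61 without GRBATKO 3 and control 2. By Spearman's rho the strongest was Igf1 with Stat5a at rho = -0.86 (exact p = 0.0107, adjusted p = 0.346), with r = -0.83 (exact p = 0.00938, adjusted p = 0.116) and r = -0.84 without GRBATKO 2 and GRBATKO 3. Stat3 with Stat5a had r = 0.80 (exact p = 0.00779, adjusted p = 0.116) and rho = 0.83 (exact p = 0.0154, adjusted p = 0.346), and r was 0.56 without GRBATKO 3 and control 2. Igf1 with Socs3 had r = -0.82 (exact p = 0.0103, adjusted p = 0.116), rho = -0.76 (exact p = 0.0368, adjusted p = 0.551) and r = -0.76 without GRBATKO 3 and control 2.

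The genes with the pattern most like Cish were sought by Pearson's r over the 8 arrays among 1015 named probe sets above the median level and with an SD of at least 0.25. The closest 6 were Kdm2b, a histone demethylase (r = 0.97), Pik3r1, the regulatory subunit of phosphoinositide 3-kinase (0.96), Xbp1, a transcription factor of the unfolded protein response (0.94), the ubiquitin ligase Mid1 (0.92), the kinase Stk17b (0.89) and the deubiquitinase Usp10 (0.88). These r are the highest of 1015 by choice, over arrays that share their hybridization, and carry no test. Pik3r1 shows the pattern: it was 8.62, 8.76, 8.52 and 8.60 in GRBATKO tissue, against 8.22, 8.74, 7.64 and 7.88 in control tissue. As in Cish, control 2 stands with the knockout mice and control 3 is lowest. Without control 2 and control 3, r with Cish was 0.92 for Kdm2b, 0.96 for Pik3r1, 0.93 for Xbp1, 0.89 for Mid1, 0.98 for Stk17b and 0.93 for Usp10. None of the 6 passed the genotype threshold. Pik3r1 differed by 0.50 (SE 0.20, limma adjusted p = 0.563) and Kdm2b by 0.27 (SE 0.15, limma adjusted p = 0.670).

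**Figure D5:**
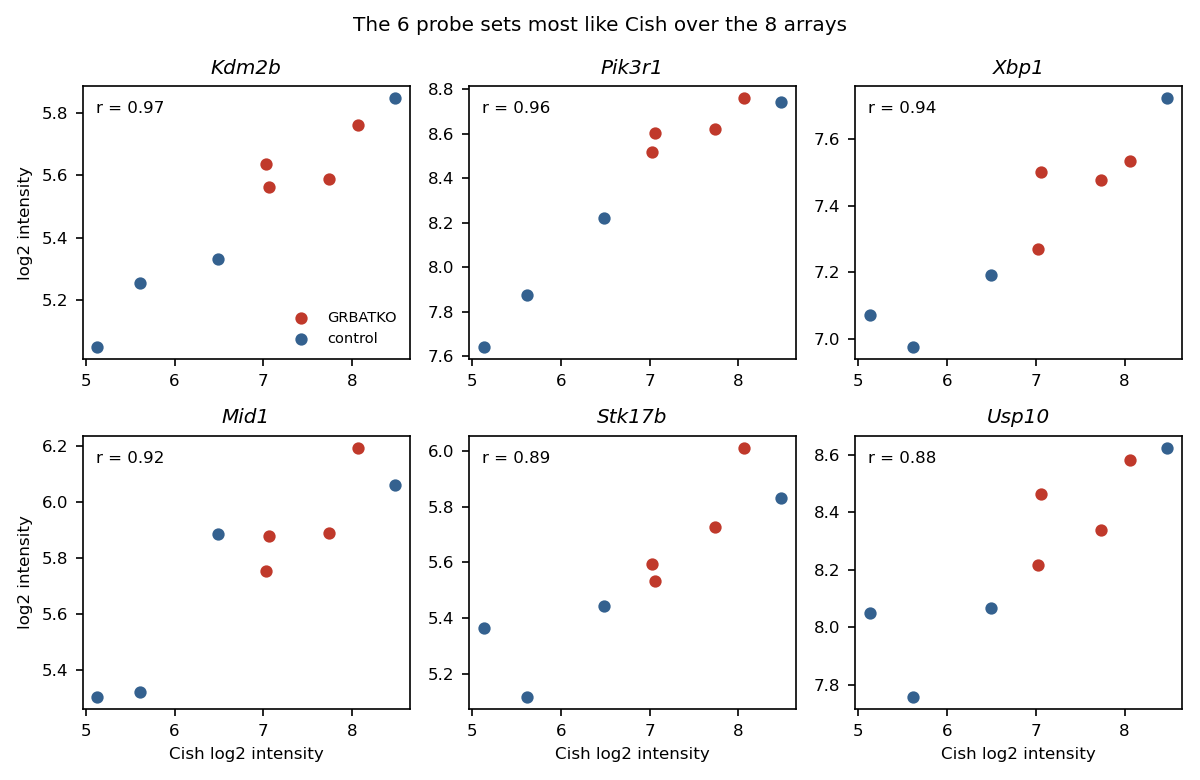
Log2 intensity of the 6 genes with the highest Pearson r with Cish over the 8 arrays (vertical axes) against that of Cish (horizontal axes), GRBATKO mice in red and control mice in blue. Control 2 lies at the right end of each panel at a Cish value of 8.48, and control 3 and control 4 at the left end, at 5.13 and 5.61.

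The 3 genes running most against Cish were Tpm1 (r = -0.88), Pdlim3 (-0.85) and Tpm2 (-0.85), which code for proteins of the contractile apparatus. Tpm2 was 5.44, 5.57, 5.69 and 6.75 in GRBATKO tissue, against 5.87, 5.41, 8.27 and 6.78 in control tissue, highest in control 3, the mouse with the highest muscle markers. Without control 2 and control 3 the r of these 3 genes with Cish was -0.69, -0.92 and -0.70.

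Around the members, 122 further genes of the pathway were measured, drawn from 8 lists. None passed over all probe sets in the limma fit, 9 of 122 had an unadjusted p under 0.05 where 8.62% of all probe sets had, and 4 of 122 (3.28%) had groups without overlap where 5.64% of all did. Their median difference was -0.01, against -0.00219 over all probe sets. The shares thus lay near or below the background.

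Of the ligands of these receptors, 20 were measured, 16 of them among the dimmest 40 percent of the table, and none passed the threshold. Lep, the hormone leptin that fat cells secrete, had the smallest p: it was 5.60, 6.22, 4.37 and 5.34 in GRBATKO tissue, against 4.35, 5.25, 4.33 and 3.68 in control tissue. GRBATKO 3 fell among the control mice, so the groups overlap at a difference of 0.98 (SE 0.41, limma adjusted p = 0.563). The lymphoid growth factor Il7 differed by 0.25 (SE 0.11, limma adjusted p = 0.585) and was highest in GRBATKO 2, at 2.73.

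Of 25 cytokine receptors none passed, with a median difference of 0.02. Cntfr, the receptor subunit for ciliary neurotrophic factor, was 6.40, 5.65, 5.998 and 6.41 in GRBATKO tissue, against 5.92, 7.74, 7.20 and 7.17 in control tissue. Control 1 lay with the knockout mice, and the difference was -0.89 (SE 0.35, limma adjusted p = 0.548). Csf2rb, the shared receptor chain for GM-CSF and its relatives, differed by 0.20 (SE 0.10, limma adjusted p = 0.609).

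The 7 measured kinases and other STAT genes had differences between -0.15 and 0.05, with none past the threshold. Jak2, the kinase that the growth hormone receptor uses, averaged 6.89 in GRBATKO and 6.88 in control tissue. It is named outside the rule for its role. The 2 of smallest p were Stat6, the transducer of interleukin 4 (-0.15, SE 0.09, limma adjusted p = 0.680), and Jak3, the kinase of lymphoid cytokine receptors (-0.04, SE 0.08, limma adjusted p = 0.910).

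Among 20 other SOCS genes, phosphatases and further brakes none passed, 14 had a higher mean in GRBATKO tissue and the median difference was 0.07. Ptpn6, the phosphatase SHP-1 that removes phosphate from JAK kinases, was 5.28, 5.59, 5.24 and 5.03 in GRBATKO tissue, against 4.88, 4.91, 4.75 and 4.87 in control tissue. Every knockout mouse lay above every control mouse, at a difference of 0.43 (SE 0.11, limma adjusted p = 0.364). The highest Ptpn6 value came from GRBATKO 2, the mouse high in lymphocyte markers. The part of lymphocyte or macrophage RNA in the Ptpn6 values was not tested. Ptpn2, a phosphatase that acts on JAK and STAT proteins, also had groups without overlap, at 0.15 (SE 0.08, limma adjusted p = 0.611). Socs4, Socs5, Socs6 and Socs7, the remaining SOCS genes, differed by 0.08, 0.09, 0.20 and 0.19 and did not pass.

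Of 16 further genes known as STAT5 targets in other tissues none passed, and 12 had a lower mean in GRBATKO tissue. Ccnd1, which codes for cyclin D1, was 7.51, 7.46, 7.28 and 7.52 in GRBATKO tissue, against 7.90, 7.91, 7.68 and 7.68 in control tissue. All knockout mice lay below all control mice, at a difference of -0.35 (SE 0.09, limma adjusted p = 0.355). The survival kinase Pim2 was 4.16, 4.62, 3.997 and 4.47 in GRBATKO tissue, against 4.91, 4.95, 4.57 and 4.72 in control tissue, with GRBATKO 2 just above control 3, and differed by -0.47 (SE 0.15, limma adjusted p = 0.449).

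Of 17 genes known as STAT3 targets none passed. Hif1a, the hypoxia-inducible factor, was 8.65 to 8.74 in GRBATKO and 8.39 to 8.62 in control tissue, without overlap, at 0.17 (SE 0.07, limma adjusted p = 0.563). Bcl3, a cofactor of NF-kappaB, differed by -0.34 (SE 0.15, limma adjusted p = 0.564). Of 17 genes of the IGF system none passed, with Irs1, the docking protein of the insulin and IGF1 receptors, at 0.35 (SE 0.14, limma adjusted p = 0.562) and the binding protein Igfbp7 at -0.15 (SE 0.08, limma adjusted p = 0.665). Of 8 partners and targets of Bcl6 none passed. Prdm1, which codes for BLIMP-1 and is repressed by Bcl6 in lymphocytes, differed by -0.27 (SE 0.10, limma adjusted p = 0.532), and Bcl6b, a paralog of Bcl6, by -0.18 (SE 0.11, limma adjusted p = 0.698).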

How the data were processed

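Per the submitters' processing notes the arrays were summarised with RMA, and the table deposited by the authors gives an intensity on a linear scale for 21115 probe sets on 8 arrays. No source used here states the RMA version, the probe definitions or a build. That the scale is linear was read from the values, and log2 was taken before any step. Symbols came from the platform annotation through gene numbers (20405 named, 710 unnamed); 12 of 134 pathway list genes had no named probe set and were not analysed here. Genotypes were set against each other by limma (version 3.58.1, R 4.3.3), using lmFit and eBayes with genotype as the only term (6 residual and 3.46 prior degrees of freedom), with Benjamini-Hochberg adjustment over all probe sets and a threshold of 0.05. The fit was tested on simulated data. Correlations used exact permutation over all pairings. The labels number the mice but name no litter or day, so the p-values reflect only how far these samples spread, which may be technical. Precision is limited by the number of arrays. The members, lists and tests were chosen with earlier results of these data known.

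Genes were named by a rule: the 10 members, Nr3c1, the 2 genes of smallest p in each pathway list where none passed, and the 6 genes most and 3 least like Cish, with predicted genes and olfactory and vomeronasal receptors left out. Named outside it after their values were seen were Jak2, Socs4 to Socs7 and the genes most like Bcl6. The alternatives were other variance priors and scalings, a filter on dim probe sets, array weights, blocks for replicate number and plate column, and arrays left out.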

Additional observations from a re-analysis of the deposited data

Results flagged for a closer look

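Dixon's test was applied to each member in each group of 4 mice, 20 groups in all, of which chance alone flags about 1 in 20. Since the members were chosen on these arrays, the outcome is a description. It singled out 3 values, all in genes whose whole range is under 0.19 log2 units. Stat3 was 7.89 in GRBATKO 3, below 8.001 to 8.02 in the other knockout mice, and 8.06 in control 2, above 7.98 to 7.99 in the other control mice. Stat5b was 7.09 in control 4, above 6.95 to 6.96 in the other control mice. Bcl6 in GRBATKO 2, at 8.16, came close without passing (a gap of 0.828 of the group's range).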

How the results depend on the processing

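No pathway gene passed the threshold as reported or in any of the 20 alternatives, and the tally of members, a description only, was 0 throughout. The number of probe sets past it over the whole table, 5 as reported, came to 30 under a trended variance prior, 14 with dim probe sets left out, 8 after repeated quantile normalization, 3 without control 1 and control 4, 2 without control 3 and GRBATKO 4, 1 with the replicate number as a block, 0 within plate column 5, 1 within plate column 7, and 3 to 5 with each array left out in turn. Without GRBATKO 2 it was 3. The cause of these shifts was not tested. Where genes or arrays were left out, their smaller number cannot be told apart from other causes. The Cish difference, a description only, stayed above 0 throughout. It was 1.004 to 1.19 under other priors, scalings and weights and 0.61 to 1.73 with each array left out. Other priors and the dim filter change its SE and leave the difference itself as it is. All these fits reuse the arrays on which Cish was chosen, so the steady sign is no support for it. The difference was smaller than its SE within plate column 7 (0.52, SE 0.92) and without control 1 and control 4 (0.67, SE 0.83). With the replicate number as a block it was 1.04 (SE 0.35). Over all probe sets, same-numbered mice of the 2 groups did not deviate together (r from -0.06 to 0.09), so no pairing was assumed. The Cish values themselves ran in the same order of mouse number in both groups. For mice 2, 1, 4 and 3 they were 8.06, 7.74, 7.06 and 7.02 in GRBATKO and 8.48, 6.49, 5.61 and 5.13 in control tissue. This shared order was seen after the fact, and whether it is more than chance was not tested. The relation of Cish with Socs2 turned to r = -0.27 without control 2 and control 3, and that with Igf1 to rho = -0.024 and, after group means were subtracted, to r = -0.11. Signal over background was not analysed here, so no limit from it is given.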

Other observations

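Bcl6 had the second widest spread of the members, so the genes most like it over the 8 arrays were listed after its values had been seen. The closest 6 of 1015 were Zfp59 (r = 0.95), Nfil3 (0.89), Cars2 (0.87), Npas2 (0.85), Chac1 (0.83) and an immunoglobulin kappa variable segment (0.82). Nfil3 and Npas2 code for transcription factors tied to the circadian clock. Nfil3 was 5.64, 5.79, 5.62 and 5.22 in GRBATKO tissue, against 6.41, 5.69, 6.24 and 5.38 in control tissue, with control 1 and control 3 highest as in Bcl6. Npas2 was 5.48, 5.66, 5.75 and 5.33 in GRBATKO tissue, against 6.44, 5.61, 6.11 and 5.76 in control tissue. Without control 1 and control 3, r with Bcl6 was 0.86 for Zfp59, 0.64 for Cars2, 0.60 for Chac1, 0.40 for Nfil3, 0.20 for Npas2 and -0.08 for the immunoglobulin segment. The r values are the highest of many by choice, rest on Bcl6 values that fall into separate clusters, and carry no test.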
